A study of Mus musculus with 6 samples.

Results

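The genes described here present antigen on major histocompatibility complex (MHC) class II. They are H2-Aa, H2-Ab1, H2-Eb1, H2-DMa, H2-DMb1, Cd74 and Ciita, 7 genes chosen by name. Members were the probe sets of an Affymetrix mouse array whose platform annotation gives one of these symbols and no other. Of 45037 probe sets that are not array controls, 14 met this rule and covered 6 of the 7 genes, and 12 of the 14 passed a filter on low values. H2-DMb1 had no probe set of its own. The cells were sorted by fluorescence from breast tumours of MMTV-Wnt-1 mice, whose transgene places Wnt1 under the promoter of the mouse mammary tumour virus, active in mammary epithelium. Each of 3 mice gave 2 populations with 1 array each, and all 6 samples come from carriers of the transgene. The population labelled tumorigenic was gated as CD24+Thy+CD45-. The population labelled nontumorigenic is described by a negation of that gate, which does not settle whether its cells could carry CD45, the antigen shared by leukocytes. The arrays are called T1, T2 and T3 (labelled tumorigenic) and N1, N2 and N3 (labelled nontumorigenic), where the digit is the mouse. The labels give no strain, age or treatment. The comparison asks how class II transcripts differ between the cells called tumorigenic and those called nontumorigenic from the same tumours.

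Class II molecules are pairs of an alpha and a beta chain that display peptides from endosomes to CD4 T cells. H2-Aa and H2-Ab1 encode the alpha and beta chains of the mouse molecule called I-A, and H2-Eb1 encodes the beta chain of I-E. The invariant chain, encoded by Cd74, occupies the groove of new class II molecules and guides them to endosomes, where cathepsins cut it away and the DM molecule, a pair of H2-DMa and a DM beta chain, exchanges the remaining fragment for peptide. Transcription depends on Ciita, a coactivator that binds no DNA itself but is held at class II promoters by factors on a conserved set of elements, among them the X box (RFX and CREB) and the Y box (NF-Y). Dendritic cells, macrophages and B cells carry class II constitutively, and many other cell types carry it after interferon-gamma.

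The promoters of the members are shown because these elements are what the genes are known to share. RefSeq promoter sequences of the mouse assembly GRCm38.p6 covered 4 of the 7 members with 5 promoters. In 3 genes the 250 bases before the gene start held the letters CTNGNAACT, part of the X box, followed on the same strand after 10 to 40 bases by ATTGG, the Y box, which is the reverse complement of CCAAT. Capitals mark these letters, and each stretch runs 5′ to 3′ on the strand of its gene.
H2-Aa: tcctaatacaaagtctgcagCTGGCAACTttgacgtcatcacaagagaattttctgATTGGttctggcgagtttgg
H2-Eb1: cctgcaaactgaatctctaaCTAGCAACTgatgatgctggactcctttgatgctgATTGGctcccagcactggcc
H2-DMb1: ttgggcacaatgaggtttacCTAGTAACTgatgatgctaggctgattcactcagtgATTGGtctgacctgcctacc
The H2-Aa stretch lies at chr17:34287852-34287927 on the minus strand, that of H2-Eb1 at chr17:34305753-34305827 on the plus strand and that of H2-DMb1 at chr17:34153074-34153149 on the plus strand. The X letters began 84, 94 and 97 bases before the gene start in H2-Aa, H2-Eb1 and H2-DMb1. The 2 elements were 27 bases apart in H2-Aa and H2-DMb1 and 26 in H2-Eb1. The X letters were written down from these very promoters, so their presence here is a description. Both strands were searched, and the 2 motifs do not overlap. The X letters alone were found in 3.47% of 32851 mouse promoters, ATTGG alone in 33.8%, and the ordered pair in 33 promoters (0.1%). Neither of the 2 H2-DMa promoters held the pair in this window. Nor did the promoters of H2-DMb2, H2-Eb2, H2-Oa and H2-Ob, class II genes outside the members.

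Values are log2 expression per probe set as deposited, normalised between arrays by RMA. Array medians lay between 4.36 and 4.40. Probe sets with a mean over the 6 arrays below 2.98, the lowest 25%, were not tested, and that level is used below as the mark of a dim probe set. Ptprc, which encodes CD45, read 10.21, 7.76 and 3.82 in T1, T2 and T3, and 2.33, 3.59 and 2.51 in N1, N2 and N3. These values are from probe set 1422124_a_at. Probe set 1440165_at read 7.05, 3.84 and 2.66 against 2.62, 2.62 and 2.74, with T3 inside the N range. The gate excluded CD45, so T1 stands against its label on both probe sets, and T2 does so less clearly on 1440165_at. T and N name labels throughout. The 3′ control probe set for 18S rRNA read 6.32 to 7.76 in the T arrays and 8.52 to 8.97 in the N arrays. The 3′ Gapdh control exceeded the 5′ one by 6.60 log2 units in T2 and by 2.41 to 3.81 in the other 5 arrays. Differences are T minus N, from the means of 3 arrays each, with limma's standard error (SE). Adjusted p-values are by Benjamini-Hochberg over all 15027 genes, each with 1 probe set, or, where said, over all 33778 probe sets. None passed 0.05 by limma, while 1277 genes (8.5%) had an unadjusted p below 0.05. An exact permutation test of 3 arrays against 3 cannot go below 0.1 and was not used.

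H2-Ab1 had the highest difference among the members. Its probe set 1450648_s_at read 11.52, 10.01 and 6.56 in T1, T2 and T3, and 5.06, 4.66 and 4.82 in N1, N2 and N3. The populations did not overlap, and T3 lay much nearer to the N arrays than T1 and T2 did. The T mean was 9.36 ± 2.54 and the N mean 4.85 ± 0.20 (SD, n = 3 each). They differed by 4.52 log2 units (SE 1.20, 95% interval 1.60 to 7.43, limma adjusted p = 0.449), or 22.9-fold. The spread among the T arrays was thus far above that among the N arrays. Without T3 the difference was 5.92 and passed over all genes (limma adjusted p = 0.0424) but not over all probe sets (limma adjusted p = 0.0771). Probe set 1425477_x_at gave 10.15, 8.43 and 5.18 against 4.68, 4.51 and 4.41, and probe set 1451721_a_at gave 9.74, 7.74 and 5.44 against 4.74, 4.79 and 4.57. All 3 H2-Ab1 probe sets were highest in T1, next in T2 and lowest of the T arrays in T3, and none overlapped, with differences of 3.39 (SE 1.19) and 2.94 (SE 1.01) for the last 2.

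H2-Aa, the partner chain, was read by 4 probe sets that did not agree in size. Probe set 1452431_s_at read 10.36, 8.41 and 6.04 in T1, T2 and T3, and 4.84, 3.95 and 4.24 in N1, N2 and N3. Probe set 1435290_x_at read 9.70, 7.53 and 5.69 against 4.45, 3.29 and 3.90. These 2 probe sets separated the populations with differences of 3.92 (SE 1.04, limma adjusted p = 0.546 over all probe sets) and 3.76 (SE 0.98, limma adjusted p = 0.543 over all probe sets), close in size to that of H2-Ab1, and in each T1 was the highest array. Probe set 1438858_x_at read 6.54, 6.78 and 6.44 against 6.23, 5.77 and 6.19, a difference of 0.52 (SE 0.20, limma adjusted p = 0.558). It too did not overlap, but its highest array was T2 and its whole range was about 1 log2 unit. It stands for H2-Aa in the values per gene because its mean over the 6 arrays, 6.32, was just above the 6.30 of 1452431_s_at, so a family value that uses it is lower than the other 2 would give. The last H2-Aa probe set, 1443783_x_at, lay between 1.89 and 2.20 on all 6 arrays and was left out as dim.

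H2-Eb1, the I-E beta chain, was high in a single array. Probe set 1417025_at read 6.89, 4.60 and 3.99 in T1, T2 and T3, and 4.58, 3.82 and 3.87 in N1, N2 and N3. The populations overlapped, since N1 lay above T3. The difference was 1.07 (SE 0.75, 95% interval -0.76 to 2.90, limma adjusted p = 0.731), and the differences within mice 1, 2 and 3 were 2.31, 0.78 and 0.12.

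Cd74, the invariant chain, followed H2-Ab1. Its single probe set, 1425519_a_at, read 12.72, 11.47 and 8.13 in T1, T2 and T3, and 6.18, 6.95 and 6.77 in N1, N2 and N3. The populations did not overlap, and T3 again stood between T2 and the N arrays. The T mean was 10.77 ± 2.37 and the N mean 6.63 ± 0.40 (SD, n = 3 each). They differed by 4.14 log2 units (SE 1.13, 95% interval 1.39 to 6.89, limma adjusted p = 0.460), or 17.6-fold. The difference was 6.54, 4.52 and 1.36 within mice 1, 2 and 3. Without T3 it was 5.46 and passed over all genes (limma adjusted p = 0.0469) but not over all probe sets (limma adjusted p = 0.0818).

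**Figure D1:**
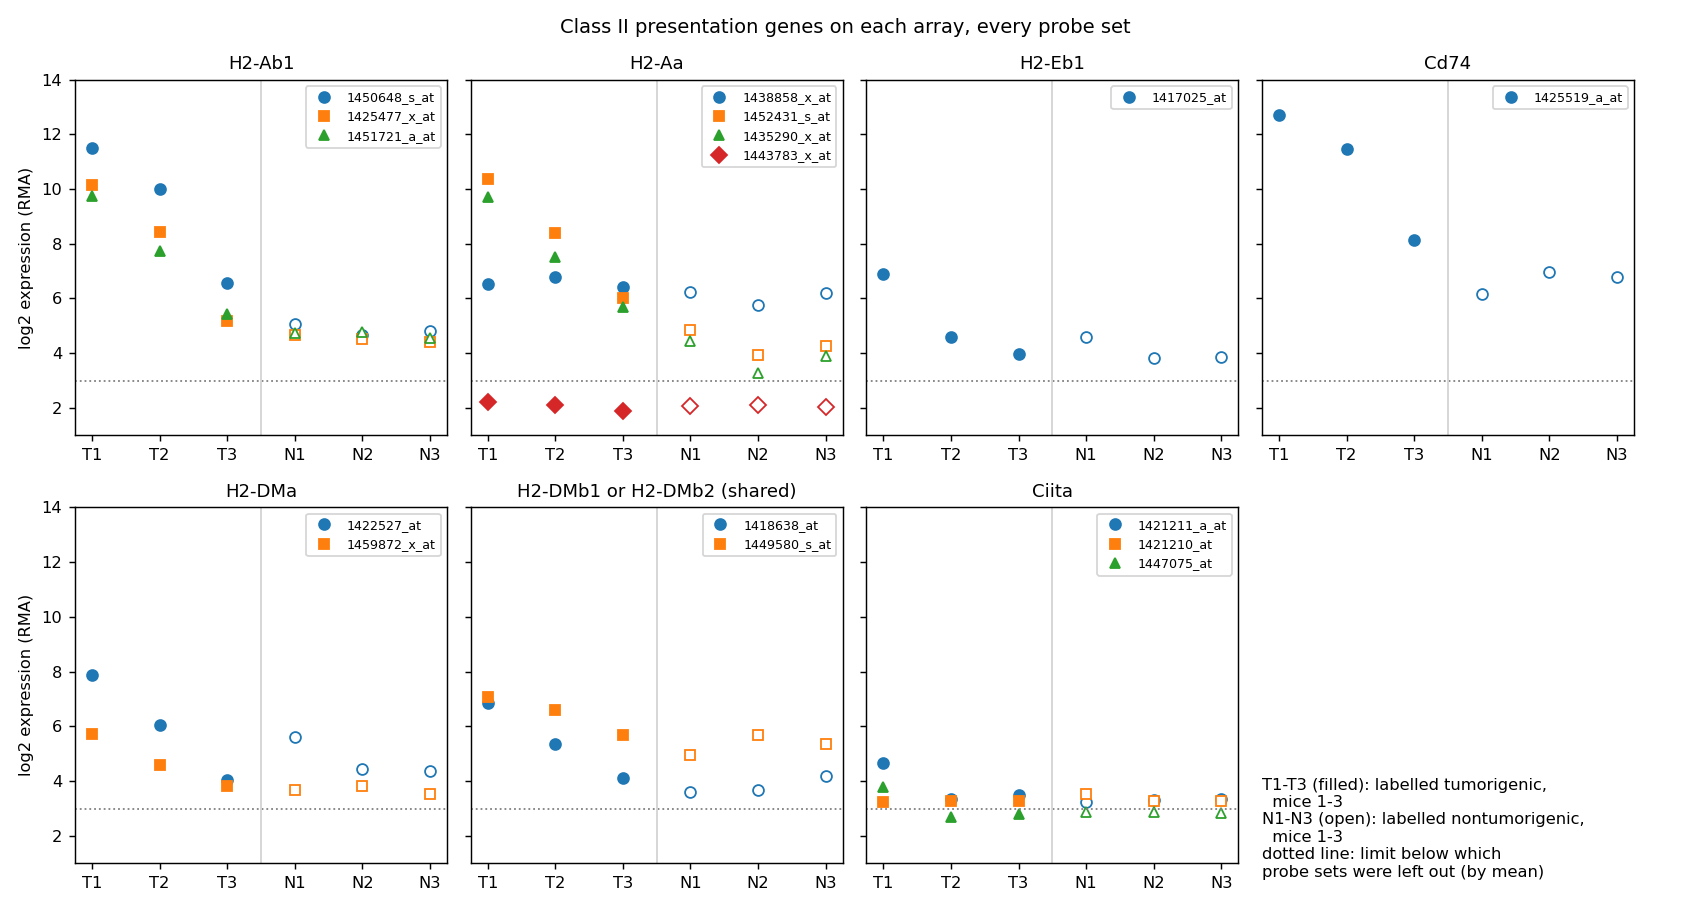
Log2 expression (RMA) of every member probe set on the 6 arrays, 1 panel per gene and 1 for the probe sets shared by H2-DMb1 and H2-DMb2, with filled marks for T1 to T3 and open marks for N1 to N3; the dotted line is the mean level of 2.98 below which probe sets were not tested. The 3 H2-Ab1 probe sets, 2 of the H2-Aa ones and Cd74 are highest in T1, lower in T2 and nearest to the N arrays in T3, while H2-Aa 1438858_x_at is nearly level.

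The DM molecule, which edits the peptides on class II, was read less evenly. H2-DMa probe set 1422527_at read 7.87, 6.04 and 4.02 in T1, T2 and T3, and 5.59, 4.43 and 4.35 in N1, N2 and N3. T3 was the lowest of all 6 here, so the populations overlapped, with a difference of 1.18 (SE 0.97, 95% interval -1.17 to 3.53, limma adjusted p = 0.763). The other H2-DMa probe set, 1459872_x_at, read 5.73, 4.58 and 3.83 against 3.66, 3.82 and 3.52 and did not overlap, though T3 at 3.831 lay just above N2 at 3.823 (difference 1.05, SE 0.47). For the beta chain, the array has 2 probe sets annotated to both H2-DMb1 and H2-DMb2, neighbouring genes, and the values cannot be given to either. Probe set 1418638_at read 6.86, 5.36 and 4.11 against 3.60, 3.68 and 4.16, and probe set 1449580_s_at read 7.07, 6.60 and 5.67 against 4.96, 5.66 and 5.34. Both were highest in T1, and in mouse 3 they differed by -0.05 and 0.34. The probe set of H2-DMb2 alone, 1419744_at, gave a difference of -0.42 (SE 0.29).

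Ciita, the class II transactivator, lay close to the dim level. Probe set 1421211_a_at read 4.64, 3.35 and 3.49 in T1, T2 and T3, and 3.23, 3.29 and 3.35 in N1, N2 and N3, so that T1 stood above the other 5. The difference was 0.54 (SE 0.36, 95% interval -0.33 to 1.41, limma adjusted p = 0.713). Probe set 1421210_at ran the other way, with 3.22, 3.28 and 3.28 against 3.52, 3.28 and 3.28. It had 3 distinct values on 6 arrays. Probe set 1447075_at was left out as dim and read 3.76 in T1 and 2.68 to 2.86 in the other 5.

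**Figure D2:**
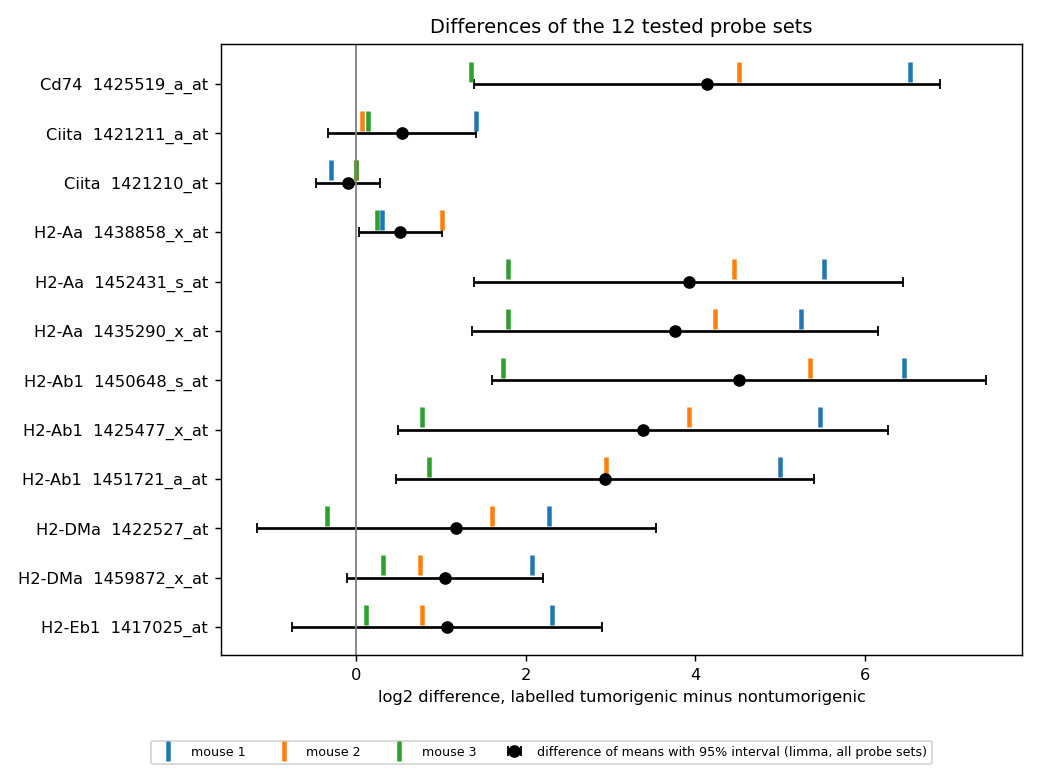
Log2 difference (T minus N) of the 12 tested probe sets: black points are differences of means with 95% intervals from limma over all probe sets, and coloured ticks are the differences within mice 1, 2 and 3. Intervals of the 3 H2-Ab1, 3 H2-Aa and 1 Cd74 probe sets lie above 0 before adjustment, and mouse 3 has the smallest difference in each of these 7.

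Across the family, with 1 probe set per gene, 0 of 6 measured members passed the adjusted threshold by limma, where 0% of all genes did, and 3 had an unadjusted p below 0.05. With T3 left out, 2 of 6 passed, H2-Ab1 and Cd74, where 0.12% of all genes did, and with both T3 and N3 left out 0 of 6 passed. Over all probe sets without T3, 0 of the 12 member probe sets passed by limma, where 0.0237% of all probe sets did. Each of the 6 differences was positive, and their median was 1.13 against 0.0051 over all genes, of which 50.7% were positive. The unadjusted p was below 0.05 with a positive difference in 3 members, H2-Ab1, Cd74 and H2-Aa, against 5.23% of all genes. Every T array lay above every N array in the same 3 of 6 members, against 6.9% of all genes. By probe set, 8 of the 12 tested did not overlap in this direction, against 5.91% of all probe sets, but the 12 share genes and are not independent. The members' median was 2.30, 1.31 and 0.20 within mice 1, 2 and 3, where the median of all genes was -0.033, 0.042 and 0. Differences were positive within all 3 mice in 5 of 6 members, against 15.9% of all genes, the exception being H2-DMa in mouse 3.

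The size of the family value depended on the probe set chosen for a gene. The median over the 6 genes was 1.93 when the probe sets of a gene were averaged and 2.55 when the probe set with the highest SD stood for each gene. It depended on mouse 1 as well: without T1 the median was 0.39, and without T1 and N1 it was 0.63. Taken alone against the 3 N arrays, T3, the T array with the lowest Ptprc, lay above all of them in 4 of 6 members, against 25.4% of all genes. These 4 were H2-Ab1, Cd74, H2-Aa and Ciita. Ciita was counted on a small margin near the dim level, 3.49 in T3 against 3.35 in N3. Its other probe sets did not have T3 above all N arrays. Probe set 1421210_at read 3.28 in T3 and 3.52 in N1. The dim probe set 1447075_at read 2.77 in T3 and 2.84 to 2.86 in the N arrays. H2-DMa was not counted, though its probe set 1459872_x_at had T3 at 3.831, just above N2 at 3.823. With T3 alone H2-Eb1 differed by -0.10 and H2-DMa by -0.78, and the members' median was 0.29.

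The genes with profiles most like those of the members were found by the root-mean-square distance between log2 values over the 6 arrays, each gene centred on its own mean. For H2-Ab1 these were the inhibitory collagen receptor Lair1 (0.22 log2 units), the signalling adaptor Tyrobp (0.26), the coagulation factor subunit F13a1 (0.27), the immunoglobulin receptor Fcgr3 (0.28) and Ms4a7 (0.28). For Cd74 they were Ms4a6d (0.30), Fcgr3 (0.32), the chemokine Ccl6 (0.33), the actin-binding protein Coro1a of leukocytes (0.34) and the phagocyte oxidase subunit Cybb (0.34). H2-Ab1 and Cd74 were 0.41 apart, so each had nearer genes than the other member. The median distance of all tested genes was 2.72 from H2-Ab1 and 2.51 from Cd74. As an example of these profiles, Lair1 read 9.01, 7.85 and 4.47 in T1, T2 and T3 and 2.75 to 3.26 in the others.

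The rest of the class II pathway was followed in 36 genes of 6 lists, of which 33 were measured. None of the 33 passed the adjusted threshold (0% of all genes by limma). An unadjusted p below 0.05 came with a positive difference in 6 (5.23% of all genes) and with a negative one in 0. Of the differences 22 were positive (50.7% of all genes), and the median was 0.23. H2-Ob, Marchf1, Cd86 and Ifng had N means of 2.07, 2.76, 2.86 and 2.76, below the dim level. They could pass the filter only with higher T values, so their positive differences were fixed by it. Among other class II subunits 4 of 5 genes were measured and 2 were positive. H2-Ob, the beta chain of the DO molecule that restrains DM, read 6.10, 4.20 and 1.99 in T1, T2 and T3, and 2.15, 1.89 and 2.18 in the others. It was above the dim level in T1 and T2 and in no other array (difference 2.02, SE 0.97). The differences of H2-Ea, annotated as a transcribed pseudogene in the reference genome, H2-DMb2 and H2-Eb2 were 0.67, -0.42 and -0.18. H2-Ea probe set 1422892_s_at gave a larger difference of 1.60, with 6.04, 3.75 and 2.66 against 2.39, 2.56 and 2.69. H2-Oa was dim and not tested.

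Endosomal proteases and the reductase that prepare antigen had positive differences in 6 of 6 genes, where 50.7% of all genes did, with a median of 0.86. Of these, 4 had an unadjusted p below 0.05, against 5.23% of all genes. Ctss, which encodes cathepsin S, the protease that removes the invariant chain in antigen-presenting cells, read 11.87, 10.97 and 6.86 in T1, T2 and T3, and 4.54, 3.49 and 5.62 in N1, N2 and N3. The populations did not overlap, and T3 lay between T2 and the N arrays, as for Cd74 (difference for Ctss 5.35, SE 1.35, limma adjusted p = 0.443). The differences were 0.82 (SE 0.28) for the aspartic protease Ctsd, 1.68 (SE 0.65) for the asparaginyl protease Lgmn and 0.90 (SE 0.35) for Ctsb. Within mouse 3 Ctsd, Lgmn and Ctsb differed by only 0.03, 0 and 0.15. Other Ctsb probe sets gave from 0.05 (1444987_at) to 1.53 (1417491_at).

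Marchf1 and Cd86 were above the dim level mainly in T1 and T2. Marchf1, a ubiquitin ligase that removes class II from the surface of dendritic and B cells, read 6.85, 5.58 and 3.00 in T1, T2 and T3, and 3.00, 2.80 and 2.47 in the others (difference 2.39, SE 0.93). The related ligase Marchf8 was lower in every mouse, with a difference of -0.36 (SE 0.19). Co-stimulatory genes, 3 of 3 positive, had differences of 1.39 for Cd40, 1.40 for Cd86 and 0.22 for Cd80. Cd86 read 5.62 and 4.61 in T1 and T2 and 2.57 to 2.98 in the other 4 arrays, where it was dim.

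Of the DNA-binding factors of class II promoters all 7 were measured, 3 were positive, 0 had an unadjusted p below 0.05, and the median was -0.14. The RFX subunit Rfxank differed by -0.27 (95% interval -0.73 to 0.19), the NF-Y subunit Nfyc by -0.27 (-0.80 to 0.26), Creb1 by -0.35 (-1.08 to 0.39) and Rfx5 by 0.19 (-0.23 to 0.62). These intervals leave room for changes of up to about 1 log2 unit in Creb1 and do not show equal levels. Creb1 probe sets also disagreed in sign. Probe set 1428755_at gave 0.62, while 1421582_a_at, 1452529_a_at and 1452901_at gave -0.52, -0.21 and -0.42. Of the interferon-gamma axis 11 of 13 genes were measured and 7 were positive, with a median of 0.59, or 0.85, 0.03 and -0.26 within mice 1, 2 and 3. Ifng itself, named after its values were seen, read 7.42 in T1 and 2.54 to 3.08 in the other 5. The interferon-induced chemokines Cxcl10 and Cxcl9 differed by 1.42 (SE 0.53) and 1.18 (SE 0.56), the transcription factor Irf1, an inducer of Ciita, by 0.82 (SE 0.47) and the myeloid and B cell factor Irf8 by 1.04 (SE 0.61). In mouse 3 Cxcl10, Cxcl9 and Irf8 had negative differences, of -0.19, -0.37 and -0.76, while Irf1 had 0.999. Probe sets of Irf8 disagreed in sign only in mouse 3, while those of Cxcl9 disagreed in the difference of means but not in mouse 3. Irf8 probe set 1448452_at differed by 0.78, and by 0.28 in mouse 3. Cxcl9 probe set 1456907_at differed by -0.11, and by -0.97 in mouse 3.

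**Figure D3:**
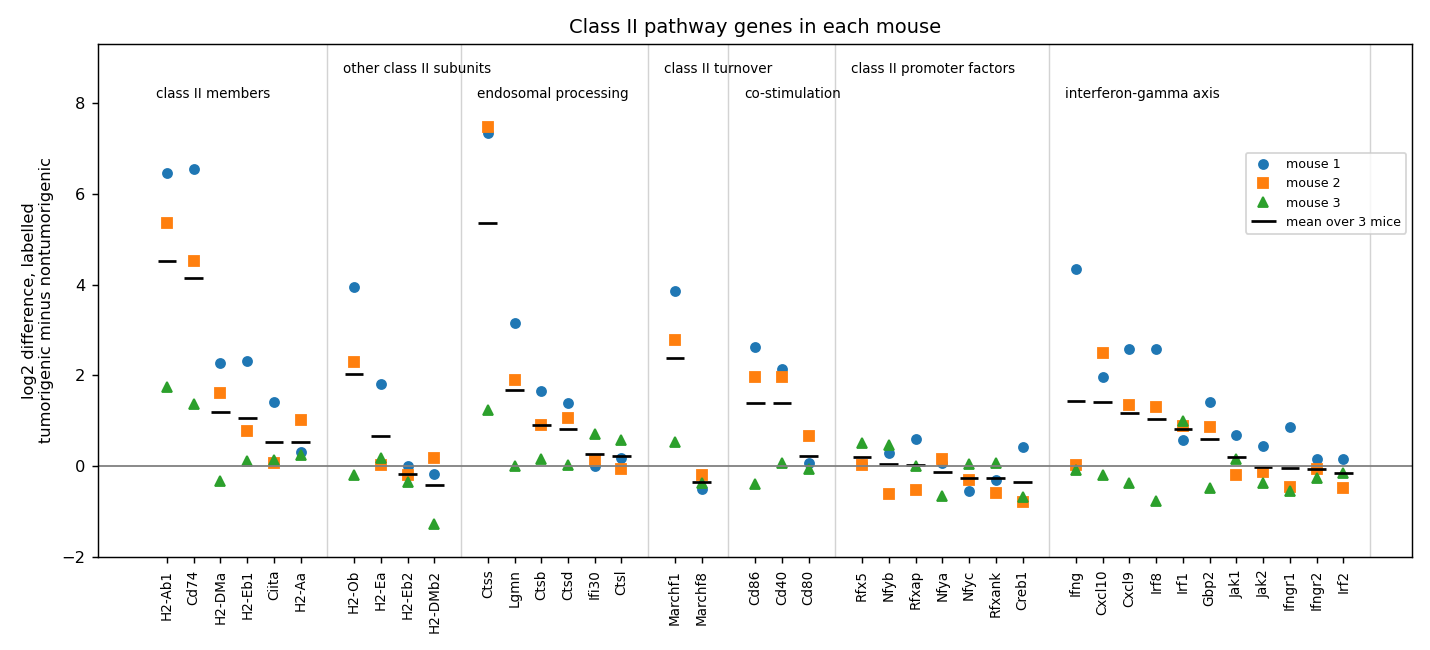
Log2 difference (T minus N) within mice 1, 2 and 3 for the 6 measured members and the 33 measured pathway genes, by list, with a black bar for the mean over the 3 mice. H2-Ab1, Cd74 and Ctss show differences above 1 in all 3 mice. H2-Ob, Marchf1, Cd86, H2-DMa, Lgmn, Ctsd, Cd40, Cxcl10, Cxcl9 and Irf8 do so in mice 1 and 2 only. The promoter factors lie around 0.

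In the RefSeq order of genes on chromosome 17, the class II genes stretch from H2-Oa to H2-Ea and enclose 6 other genes, of which 5 were tested and are named outside the rule for the lists. These are Brd2, a chromatin reader, and 4 genes of class I antigen processing. The immunoproteasome subunits Psmb9 and Psmb8 differed by 0.58 and 1.04, the peptide transporter chains Tap1 and Tap2 by 0.56 and 0.48, and Brd2 by -0.12. Their median was 0.56, or 1.19, 0.31 and 0.22 within mice 1, 2 and 3. None passed (0% of all genes by limma), and Psmb8, which read 8.98, 8.75 and 8.14 against 6.83, 8.01 and 7.91, was the single one without overlap, against 6.9% of all genes.

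Markers of leukocytes and of other cell types were read beside the members, and their part in the result was not tested. Counts of positive differences in these lists stand beside 50.7% of all genes. Some of their genes, among them Ptprc, Ms4a7 and Il7r, had N means below the dim level (2.81, 2.80 and 2.73). Passing the filter fixed a positive difference for such genes. In bulk RNA of sorted cells, more cells of a type and more RNA per cell cannot be told apart. Macrophage genes, 14 of 15 measured and all 14 positive, had a mean level of 5.35 to 9.90 in the T arrays and 3.99 to 4.14 in the N arrays, with a median difference of 4.01, or 6.44, 4.43 and 0.97 within mice 1, 2 and 3. C1qb, a complement chain made by tissue macrophages, read 12.58, 11.89 and 8.01 against 3.36, 4.49 and 4.07, with differences of 4.67 for the mannose receptor Mrc1 and 5.05 for the growth factor receptor Csf1r. Within mouse 3 C1qb differed by 3.94 on this probe set, 1434366_x_at, and by 3.92 on 1437726_x_at, but by 0.14 on 1417063_at. Of these 14 genes 10 were higher in T3 than in every N array, against 25.4% of all genes. Pan-leukocyte genes, 9 of 9 measured and positive, had mean levels of 5.97 to 9.73 and 5.27 to 5.62, with differences of 5.46 for Laptm5, 3.93 for Coro1a and 4.45 for Ptprc. The mean level of the 6 class II members ran from 5.44 to 8.36 in the T arrays and from 4.82 to 5.14 in the N arrays. In all 3 lists T1 was highest and T2 next. The dendritic cell, T and NK cell and fibroblast lists had this order too, with T1 and T2 nearly equal in the fibroblast list.

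Dendritic cell genes were less uniform, and B cell genes were low on every array. Of 10 dendritic cell genes 7 were measured and 5 were positive, with mean levels of 4.06 to 5.73 and 4.001 to 4.53. The integrin Itgax, shared by dendritic cells and macrophages, read 8.95, 6.68 and 3.69 against 3.67, 3.55 and 3.69, and the factor Irf4 differed by 2.02 (SE 1.23). The dendritic cell factor Zbtb46 had a difference of -0.70 (SE 0.61) on its brightest probe set, 1454884_at. Its dimmer probe sets 1429168_at and 1440489_at gave 0.54 and -0.14, so its direction is not settled. B cell genes, 5 of 8 measured and 4 positive, had mean levels of 3.30 to 3.49 and 3.25 to 3.41, and Cd79b, Pax5 and Cd79a had differences of 0.13, 0.13 and 0.09. T and NK cell genes, 8 of 11 measured and 7 positive, averaged 7.36 in T1, the array with the high Ifng, and 3.47 to 4.39 in the other 5. Il7r, Cd4 and Cd8a differed by 2.09, 0.38 and 1.41.

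In the endothelial, luminal epithelial and basal epithelial lists T1 was not the highest array, and in the fibroblast list it was level with T2. Endothelial genes, 9 of 9 positive, averaged 7.11 to 7.79 in the T arrays and 5.65 to 6.27 in the N arrays, with differences of 2.11 for Robo4, 2.41 for Cldn5 and 1.71 for Kdr. Luminal epithelial genes, 0 of 8 positive, averaged 6.54 to 8.55 and 9.89 to 10.18, with Ehf at -2.19, Elf5 at -3.10 and Krt19 at -2.92. Basal epithelial genes, 7 of 8 positive, averaged 9.03 to 10.35 and 8.97 to 9.35, highest in T3, with Tagln at 0.64, Krt17 at 0.65 and Cnn1 at 0.87. Fibroblast genes, 4 of 6 positive, averaged 9.23 to 11.08 and 9.93 to 10.73, with Dcn at 0.35, Col1a1 at -0.12 and Lum at 0.22. Of the gate's own genes, Cd24a differed by -0.55 (SE 0.27) and Thy1 by 0.24 (SE 0.42).

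**Figure D4:**
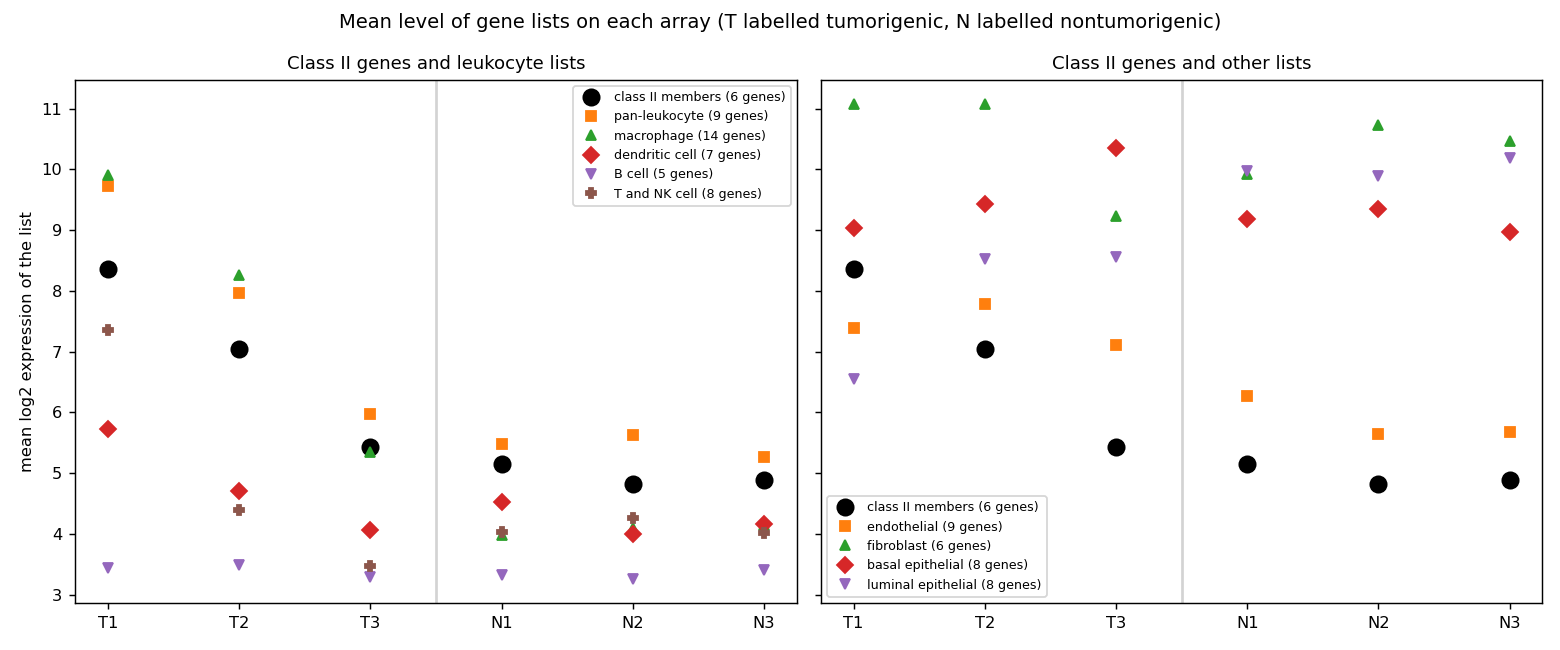
Mean log2 expression of gene lists on each of the 6 arrays (T1 to T3 labelled tumorigenic, N1 to N3 labelled nontumorigenic), with leukocyte lists on the left and other lists on the right, and the 6 class II members in black in both. Class II, macrophage and pan-leukocyte genes are highest in T1 and next in T2, as are dendritic cell and T and NK cell genes. Fibroblast genes are nearly equal in T1 and T2. B cell genes lie between 3.25 and 3.49 on every array, and endothelial genes are higher in all 3 T arrays. Levels are to be compared within a list, not between lists.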

How the data were processed

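The authors' deposited values are log2 expression per probe set for 6 arrays, made with RMA from amplified RNA, per the submitters' processing notes and the labels' protocols. RMA sets arrays to 1 distribution of values, so a shift shared by most transcripts would be lost. Its version and background step, not given in the sources used here, could alter dim values most. The log2 scale was inferred from the range (highest 13.87). At least 2 arrays shared a value exactly in 16689 of 45101 probe sets, so small differences between dim probe sets carry little. For arrays there is no depth, and with 3 per population their number limits the precision.

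Probe sets with 1 gene symbol (34945, against 932 with several and 9160 with none) were named by the platform annotation, and 34741 matched a RefSeq gene of GRCm38.p6 by Entrez identifier. The 64 controls and the lowest 25% by mean were left out. The probe set with the highest mean stood for a gene. Populations were compared with limma 3.58.1 (R 4.3.3), with no covariate, and the script was tested on simulated data. Named were all members, up to 4 genes per pathway list and 3 per cell type list by smallest p, the gate genes, and the 5 genes nearest to H2-Ab1 and to Cd74; Ifng and the 5 tested genes between the class II genes were named beside this rule, with values seen. Members and lists were chosen with earlier results of these data known. Replicates are separate mice, and since each mouse gave both populations its number pairs them. After subtraction of population means, the T and N arrays of mice 1, 2 and 3 correlated at 0.079, 0.136 and 0.086 over genes, which are not independent.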

Additional observations from a re-analysis of the deposited data

How the results depend on the processing

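Differences of all 6 members were positive under every alternative that used both populations in full or left out 1 array or 1 mouse, except that Ciita was not tested with the lowest 50% left out (5 of 5 positive). With T3 alone, assumed to vary like the other population, H2-Eb1 (probe set 1417025_at) gave -0.10 and H2-DMa (probe set 1422527_at) -0.78. The members' median of 1.13 was 2.55 with the probe set of highest SD, and lay between 0.39 and 1.91 when an array or mouse was left out. With the mouse as a replicate block, which pairs the arrays, the median was 1.13 and 0 genes passed, and no adjusted call changed. Members with an unadjusted limma p below 0.05 were then 2 and not 3. H2-Aa moved from 0.038 to 0.087 by limma. Against 0 genes by limma, 1 passed with no filter on low values and 1 with probe sets averaged. Against 0 probe sets, 1 passed with a trended and robust prior. Leaving out an array or a mouse gave 0 to 18 genes, 0 to 8 probe sets and 0 to 2 members by gene, the upper counts without T3, which has the lowest Ptprc of its population. No pathway gene passed under any alternative. The cause was not tested. Dim probe sets, Ciita above all, limit what can be read of small differences.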
